A study of Mus musculus with 21 samples.

Results

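Narrow shared peaks are short intervals at which a p53 antibody gave a CUT&RUN peak both in Trp53 knockout (KO) and in wild-type (WT) cells. They were chosen by position and width, as the intervals of the WT peak list that overlap a KO peak by 1 bp or more, overlap no WT-specific peak and are shorter than 500 bp. Of 6811 WT peaks, 2963 met this rule, 43.5% (95% exact binomial interval 42.3 to 44.7). Overlap and WT width in these lists are thus what selected the members, and neither is a result. The KO cells were Trp53-/- and the WT cells Trp53+/+. Both were ID8, an immortalized epithelial line of ovarian surface epithelium from C57BL/6 mice, untreated and growing asynchronously, and the labels do not say whether the KO cells are 1 clone. The antibody was used on 2 KO and 2 WT samples of the 21 in the study, and the authors deposited 1 list of intervals per genotype, 9784 for KO and 6811 for WT. No value here has a replicate behind it, and the lists give no height or score, so whether the signal at these sites is weak was not measured. The label of p53-independent signal rests on the rule itself, since each member had to have a KO partner.

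In CUT&RUN an antibody directs a micrococcal nuclease to its target, and the released DNA is sequenced. The p53 protein binds DNA as a tetramer to sites made of a pair of half-sites, and switches on genes of cell cycle arrest, DNA repair and apoptosis. Peaks found with the same antibody in Trp53-/- cells are taken here as background of the assay, an assumption, since the lists do not show p53 protein. What gives rise to these peaks was not tested.

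The promoter windows that lay under narrow shared peaks are shown first, because they are the part of these intervals for which sequence was used here. A window runs from 250 bases before a RefSeq gene start to 50 after it, on GRCm38.p6, the assembly that mm10 represents (sequences from RefSeq), and is printed 5′ to 3′ on the gene's strand. Narrow shared peaks overlapped 358 of 32851 windows, 1.09%, belonging to 320 genes, and covered a median of 136 of the 300 bases. The windows of Ankrd13c (ankyrin repeat protein) and Cycs (cytochrome c, the electron carrier of mitochondria and trigger of the apoptosome) lay wholly under a member, and were picked for printing among such windows because they hold a CRE. The windows of B3galt4, a glycosyltransferase, Bag6, a chaperone of newly made proteins, and Cd55, a complement inhibitor, were also covered over all 300 bases. Those of Tpm1 (tropomyosin, which coats actin filaments) and Fosb (an AP-1 subunit) lay under one over 192 and 223 bases. Capitals mark a match to the cyclic AMP response element (CRE, TGACGTCA) or to the p53 half-site.
Ankrd13c, chr3:157946750-157947049 (+ strand): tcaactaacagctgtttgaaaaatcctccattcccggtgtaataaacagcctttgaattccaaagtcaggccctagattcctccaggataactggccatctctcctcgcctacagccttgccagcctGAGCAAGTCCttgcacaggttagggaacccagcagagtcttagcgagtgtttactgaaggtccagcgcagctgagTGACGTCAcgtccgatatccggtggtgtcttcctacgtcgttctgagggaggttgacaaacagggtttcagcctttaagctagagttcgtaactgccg
Cycs, chr6:50566520-50566819 (- strand): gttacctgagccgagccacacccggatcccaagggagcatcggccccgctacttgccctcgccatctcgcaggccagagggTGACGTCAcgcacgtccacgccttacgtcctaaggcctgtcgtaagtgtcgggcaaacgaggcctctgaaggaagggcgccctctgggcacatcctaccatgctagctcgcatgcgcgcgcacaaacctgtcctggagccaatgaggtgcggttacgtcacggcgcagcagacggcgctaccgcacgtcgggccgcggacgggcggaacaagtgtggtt
Tpm1, chr9:67049164-67049463 (- strand): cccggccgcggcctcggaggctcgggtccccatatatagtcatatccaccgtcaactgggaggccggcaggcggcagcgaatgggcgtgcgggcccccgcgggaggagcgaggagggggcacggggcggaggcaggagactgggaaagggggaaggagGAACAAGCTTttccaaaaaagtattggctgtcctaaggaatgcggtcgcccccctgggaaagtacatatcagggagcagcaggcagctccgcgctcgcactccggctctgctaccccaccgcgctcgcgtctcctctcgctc
Fosb, chr7:19309996-19310295 (- strand): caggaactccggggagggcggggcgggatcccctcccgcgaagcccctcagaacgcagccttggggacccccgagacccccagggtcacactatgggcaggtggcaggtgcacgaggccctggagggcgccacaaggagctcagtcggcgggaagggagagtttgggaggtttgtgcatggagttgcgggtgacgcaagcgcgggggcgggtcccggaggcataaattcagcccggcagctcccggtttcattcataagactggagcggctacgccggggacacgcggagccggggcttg
The capitals in Ankrd13c are 1 p53 half-site and 1 CRE match, those in Cycs 1 CRE match and those in Tpm1 1 p53 half-site, and Fosb had neither.

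The p53 half-site was about as frequent in windows under narrow shared peaks as in promoters at large. It was found in 32 of 358 windows, 8.94% (6.19 to 12.4), against 8.36% of all 32851 windows. Windows under WT-specific peaks held it in 33 of 163, 20.2% (14.4 to 27.2), and windows under KO peaks that no WT peak overlaps in 42 of 556, 7.55% (5.50 to 10.1). Under shared peaks of 500 bp or wider it was in 6 of 80, 7.50% (2.80 to 15.6). The interval of the narrow shared peaks lies wholly below that of the WT-specific peaks and contains the value over all windows. Counting matches that lay entirely under a peak gave 0.352 per kb of window covered by narrow shared peaks, 0.262 per kb by KO peaks without a WT peak, 1.02 per kb by WT-specific peaks, and 0.292 per kb over all windows. A pair of half-sites separated by 0 to 13 bases was in 0 of the 358 windows, which allows a share of up to 1.03% (upper bound of the 95% exact interval). It was in 0 of 556 windows under KO peaks without a WT peak, in 3 of 163 under WT-specific peaks and in 24 of all 32851, 0.0731%, a share well below that bound, so the 0 shows no depletion. Peaks of 1 list share their libraries, so these intervals cover counting error only, and the lists allow no test over samples.

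The CRE, Sp, ETS and NRF1 motifs were found in a larger share of windows under narrow shared peaks than of all windows, as they were under KO peaks without a WT peak. The CRE, the site of CREB and ATF factors, was in 20 of 358 windows under narrow shared peaks, 5.59% (3.45 to 8.50), in 3.78% (2.35 to 5.72) under KO peaks without a WT peak, in 4.29% (1.74 to 8.65) under WT-specific peaks and in 1.79% of all windows. GGGCGG, bound by Sp factors, was in 49.7% under narrow shared peaks, 56.1% under KO peaks without a WT peak, 49.7% under WT-specific peaks and 35.7% of all windows. CCGGAAG, an ETS site, was in 16.2% under narrow shared peaks, 15.8% under KO peaks without a WT peak, 31 of 163 windows under WT-specific peaks and 8.86% of all windows. The NRF1 motif, GCGC and GCGC with 2 bases between them, was in 13.7% under narrow shared peaks, 16.9% under KO peaks without a WT peak, 8.59% under WT-specific peaks and 6.23% of all windows. Under shared peaks of 500 bp or wider, with 80 windows, the CRE, Sp, ETS and NRF1 shares were 6.25%, 37.5%, 13.75% and 15.0%. For these 4 motifs the interval of the narrow shared peaks overlapped those of all other peak sets, so the shares do not set the narrow shared peaks apart. In 8 of the 20 windows with a CRE the match itself lay under the peak, where peaks covered 45.0% of the bases of the 358 windows. That is 2.23% of windows (0.970 to 4.36). Per kb of window covered, matches numbered 0.165 for narrow shared peaks and 0.215 (4 matches) for shared peaks of 500 bp or wider. They numbered 0.0125 (1 match) for KO peaks without a WT peak, 0.105 (3 matches) for WT-specific peaks and 0.0610 over all windows. These counts are of windows and not of separate sites. Ddx49 stands more than once among the 8, and Gm32287 and Znrd1 stand more than once among the 20.

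TGANTCA, the AP-1 site, was in 9.78% (6.90 to 13.3) of windows under narrow shared peaks, against 7.81% of all windows, an interval that contains the value of all windows. The same held for CCAAT (NF-Y), in 33.2% against 37.4%, GGAATG (TEAD), in 18.2% against 14.7%, CACGTG (E-box), in 10.1% against 7.15%, and the YY1 motif, in 0.559% against 0.633%. TATAAA, the TATA box, was in 9.78% (6.90 to 13.3), against 13.6% of all windows, which lies above that interval. Motifs were searched on both strands, and none of those spelled out contains another. A match is a description and not a binding site.

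Several of these differences changed among windows of like CpG content. The median window under a narrow shared peak held 18 CpG dinucleotides and 58.7% G and C, against 7 and 52.7% over all windows. Among windows with 18 or more CpG, 181 under narrow shared peaks and 9764 in all, the CRE was in 6.63% (3.47 to 11.3) against 3.72%, the ETS motif in 21.5% (15.8 to 28.3) against 19.3% and the NRF1 motif in 22.7% (16.8 to 29.4) against 17.9%. All 3 intervals contain the value of all such windows. The Sp motif was in 71.8% (64.7 to 78.2) against 79.6%, so its share was below that of all such windows. The TATA box was in 5.52% (2.68 to 9.93) against 3.93%, an interval that contains the value of all such windows, with the sign turned. The TEAD motif was in 14.4% (9.60 to 20.3) against 8.93%, which lies below the interval.

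**Figure D1:**
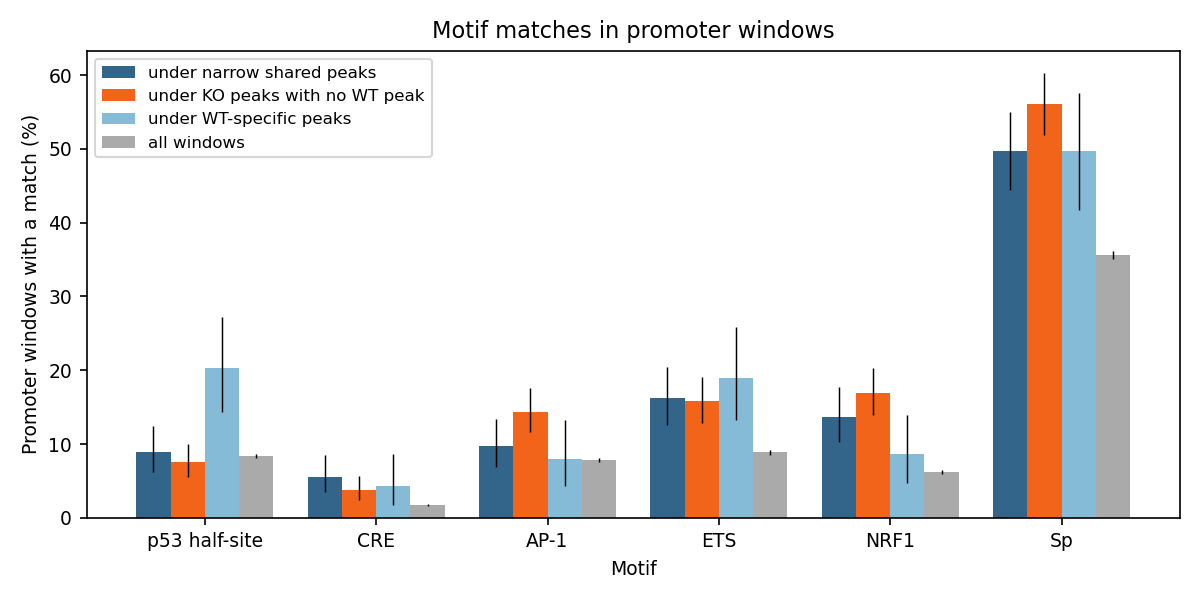
Share of promoter windows (y axis, %) that hold each motif (x axis), for windows under narrow shared peaks, under KO peaks with no WT peak, under WT-specific peaks, and for all windows. Bars are shares with 95% exact binomial intervals, and the p53 half-site stands at 8.94% under narrow shared peaks, 20.2% under WT-specific peaks and 8.36% in all windows.

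KO partners were on the whole wider than the narrow shared peaks they overlapped. The median width was 385 bp in KO (95% interval 372 to 401) and 246 bp in WT (243 to 248), and the median of the paired difference, KO minus WT, was 71 bp (62 to 82), with quartiles of 5 and 267.5 bp. The KO partner was wider in 2323 of 2963 pairs, 78.4% (76.9 to 79.9), narrower in 604 and equally wide in 36. Over all 3973 shared peaks outside the WT-specific list, which made up 58.3% of the WT list, the KO partner was wider in 74.4%. Width is part of the rule, which caps the WT side alone, so these are descriptions with no test. Where the cap was put on the KO side instead, 2207 KO peaks below 500 bp had a median of 284 bp and their WT partners one of 243 bp, and KO was wider in 62.3% (60.3 to 64.4), with a median difference of 14 bp (12 to 17). Where both were below 500 bp, KO was wider in 68.3% of 2016 pairs and the median difference was 20 bp. The median difference was above 0 whichever side was capped, and it was smaller with the cap on KO.

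The members fell into a large group of near-equal pairs and a tail with much wider KO intervals. In 1203 pairs, 40.6%, the widths differed by 50 bp or less, and in 755, 25.5%, the KO partner was at least 2 times as wide. A KO partner of 500 bp or more was found for 947 members, 32.0% (30.3 to 33.7). Members with WT widths of 200 to 250 bp, 1222 in number, had a median KO width of 280 bp, and those of 400 to 500 bp, 431 in number, had one of 506 bp. The member lay wholly inside its KO partner in 1928 cases, 65.1%, and 2573 members, 86.8%, had 90% or more of their bases in it. The midpoints of the 2 intervals were a median of 26 bp apart. Only 28 members had under 50% of their bases in the KO partner. The 2963 members had 2929 distinct KO partners, 34 of which overlapped 2 members each.

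The pairs farthest apart in width had nearest genes of varied function, some of them distant. The midpoint was 40197.5 bp from Gm15762 and 106060 bp from Gm5175, both named below. The highest ratio of KO to WT width, 12.4, belonged to a peak on chromosome 2 at 152927675 to 152927863 (mm10), 2335 bp wide in KO and 189 bp in WT, whose nearest gene was Foxs1, a forkhead transcription factor. The next, a ratio of 10.6, was 2262 bp wide in KO and 214 bp in WT and lay nearest to the noncoding RNA gene Gm36743 on chromosome 9. A peak within Myh9, the heavy chain of non-muscle myosin, was 1584 bp wide in KO and 202 bp in WT. Those nearest to the noncoding RNA genes Gm15762 and Gm39822 had ratios of 7.82 and 7.73. At the other end, a peak 209 bp upstream of the start of Bmi1, a subunit of Polycomb repressive complex 1, was 185 bp wide in KO and 454 bp in WT, a ratio of 0.407. Peaks nearest to Capza2, a capping protein of actin filaments, Gm13415, Gm5175 and Szrd1 had ratios of 0.410 to 0.434. Of these 10 peaks, 1 lay within 1 kb of a gene start, that at Bmi1.

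At the lower end of the widths, 189 bp, were members in Rabgap1l, a regulator of Rab GTPases, in Atf6, a transcription factor of the endoplasmic reticulum stress response, and beside Itgb2, a leukocyte integrin subunit. Their KO partners were 256, 278 and 203 bp wide. Just below the limit, peaks of 499 bp lay nearest to Gm34078 and within Hspg2, the gene of the basement membrane proteoglycan perlecan, and Stard10, a lipid transfer protein, with KO widths of 995, 540 and 491 bp. Just above it, peaks of 500 bp lay nearest to Txn2, the mitochondrial thioredoxin, and within Nav2 and Klhl2, with KO widths of 246, 695 and 576 bp. Both sides of the limit thus held KO partners wider and narrower than the WT peak.

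Of 3 classes of distance to a gene start, members in the nearest were closest to equal in width. Within 1 kb of a RefSeq start, 385 members had a median KO width of 260 bp and a median WT width of 230 bp, and the median difference was 15 bp (8 to 21). At 1 to 50 kb, 1712 members had medians of 391.5 bp in KO and 249 bp in WT and a difference of 75 bp (63 to 90). Beyond 50 kb, 756 members had medians of 435 bp in KO and 248.5 bp in WT and a difference of 110.5 bp (87 to 142). The KO partner was wider in 68.1%, 79.0% and 81.5% of these, and the intervals of the first class, for both measures, overlapped neither of the others.

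**Figure D2:**
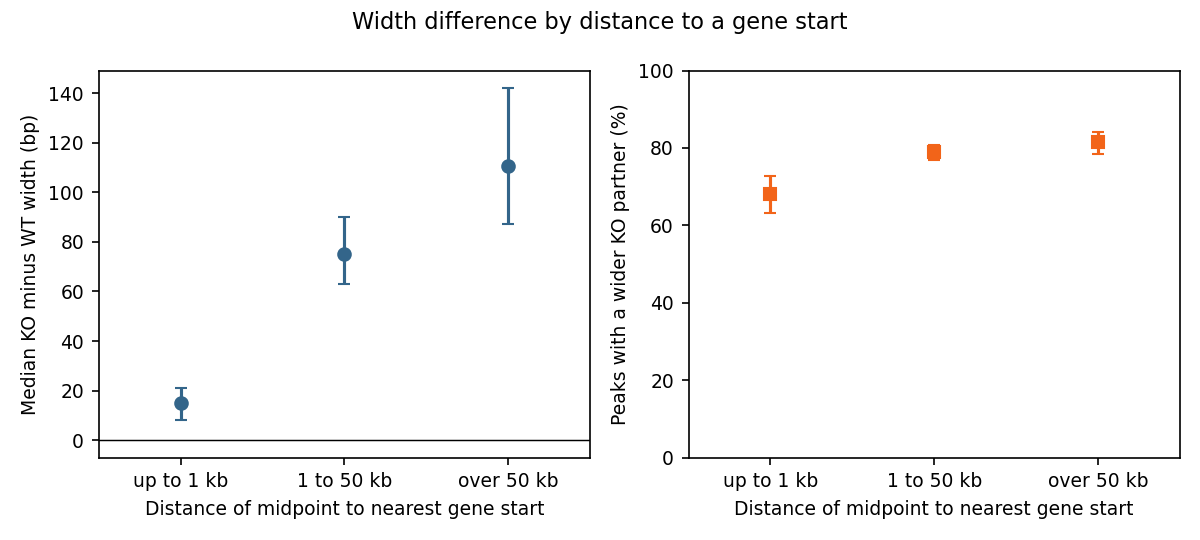
Median KO minus WT width (left, bp) and share of members with a wider KO partner (right, %) by distance of the WT midpoint to the nearest RefSeq gene start (x axis). Points carry 95% intervals (order statistics on the left, exact binomial on the right). The median difference is 15 bp within 1 kb and 110.5 bp beyond 50 kb.

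Most narrow shared peaks lay in or close to genes, and a minority at their starts. The midpoint fell inside a RefSeq gene in 1719 of 2963, 58.0% (56.2 to 59.8), within 50 kb of one in a further 1108, and farther away in 136, 4.59%. It was within 1 kb of either end of a gene in 521, 17.6%. Within 1 kb of a RefSeq start, on the chromosomes with start positions, were 385 of 2853, 13.5% (12.3 to 14.8), with 204 upstream and 181 downstream. The share was 9.16% (7.43 to 11.1) (90 of 983) for shared peaks of 500 bp or wider on the same chromosomes, 11.1% (10.3 to 11.9) for KO peaks without a WT peak and 10.3% (8.99 to 11.6) for WT-specific peaks. The interval of the narrow shared peaks lies above those of the other sets. The difference has no test across samples. WT-specific peaks were inside a gene in 49.5% (47.4 to 51.7), below the interval of the narrow shared peaks, whereas KO peaks without a WT peak, at 57.3% (56.0 to 58.6), overlapped it.

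All of the members lay on chromosomes 1 to 19 and X. Chromosome 1 held the most, 269 or 9.08%, and chromosome X the fewest, 51 or 1.72% (1.28 to 2.26), where 2.16% of KO peaks, 1.63% of WT peaks and 5.03% of RefSeq genes lie. Chromosomes Y and M had 25 and 1 WT peaks and no member. As a share of the chromosome's WT peaks, members ranged between 28.7% (23.3 to 34.6) on chromosome 19 and 56.1% (48.9 to 63.2) on chromosome 18, intervals that do not overlap. The 2 genotypes divided their peaks unequally among chromosomes: chromosome 14 had 564 KO and 295 WT peaks, a ratio of 1.91, and chromosome 19 had 196 KO and 261 WT peaks, a ratio of 0.751.

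The difference in width tended to go with that ratio, with exceptions. On chromosome 14 the median KO minus WT width of the 123 members was 174 bp, and 88.6% had a wider KO partner. On chromosome 19 it was 3 bp over 75 members, and 56.0% had a wider KO partner. Chromosome 6, at 34 bp with a ratio of 0.998, was also low, and chromosome 12, at 150.5 bp with a ratio of 1.80, was high. Chromosome 3 was low too, at 20 bp, though its ratio was 1.41. Chromosomes 7, 8 and X, with ratios of 1.89, 1.89 and 1.90, had differences of only 66, 76 and 75 bp. The median KO width ran between 280.5 bp on chromosome 3 and 484 bp on chromosome 14. The rule caps the WT width, so its range over chromosomes, 234.5 to 252 bp, is not set against this. Across the 20 chromosomes, which share the same libraries, Spearman's coefficient between the ratio of peak numbers and the median width difference was 0.73 and Pearson's r was 0.67. The lists give no depth, and its part in this was not tested.

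**Figure D3:**
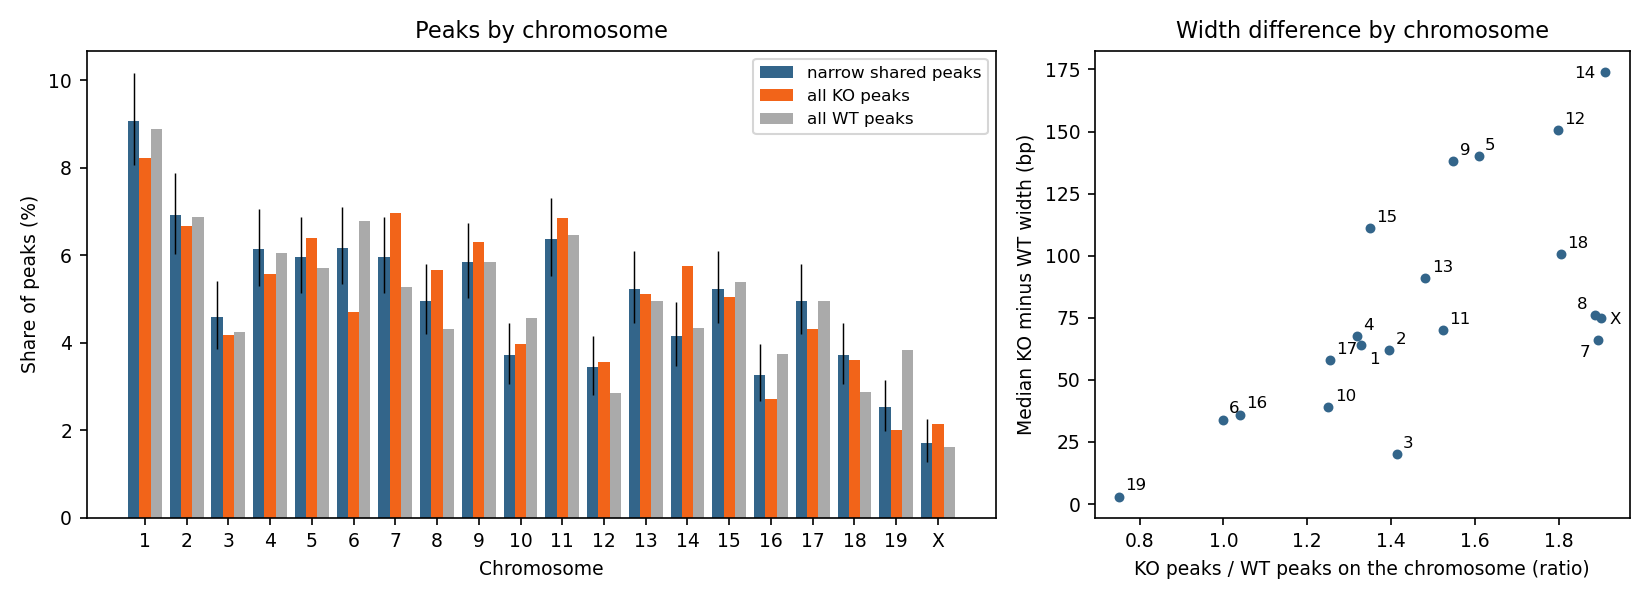
Left, share (%) of narrow shared peaks (with 95% exact binomial intervals), of all KO peaks and of all WT peaks on each chromosome. Right, median KO minus WT width of the members (y axis, bp) against the ratio of KO to WT peak numbers (x axis) for each chromosome. Chromosome 19 lies lowest at 3 bp and chromosome 14 highest at 174 bp.

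By gene, 2295 of 49980 RefSeq genes, 4.59%, had a narrow shared peak within their span and 5 kb on each side. Among 21900 protein-coding genes it was 6.67%. For comparison, peaks of the KO list without a WT peak were at 7.73% of all genes, shared peaks of 500 bp or wider at 1.57% and WT-specific peaks at 3.32%. Longer genes had a peak more often: 2.58% of protein-coding genes under 10 kb, 5.7% of those of 10 to 50 kb, 12.9% of those of 50 to 200 kb and 23.4% of longer ones. Of the genes with a peak, 1893 had 1 and 4 had 6.

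Genes of the actin cytoskeleton and targets of YAP or SRF, factors that respond to cell shape, had a narrow shared peak in 8 of 22 cases. This list, like those that follow, was chosen with earlier results of these data known, so its count is a description. Their median length was 15.8 kb, in the class where 5.7% of protein-coding genes had one. Of those with a peak, Cald1 (176975 bp), Vcl (104294 bp) and Myh9 (81591 bp) were in the class with 12.9%, and the others were shorter than 50 kb. Tpm1 had a peak of 525 bp in KO and 334 bp in WT just upstream of a RefSeq start, where its window above lies, and another of 503 bp in KO and 207 bp in WT, 638.5 bp outside the gene. Vcl, the gene of vinculin in focal adhesions, had 1 KO peak of 1366 bp upstream of its start, in which 2 WT peaks of 463 and 195 bp lay. Myh9 had 3 members and Cald1, a regulator of actomyosin, 3. Ccn2, a matricellular protein and classical YAP target, had a peak over one end of the gene of 234 bp in KO and 275 bp in WT. Thbs1, which encodes thrombospondin 1, had one 367.5 bp outside the gene that was 1468 bp wide in KO and 213 bp in WT. Tagln2 and the receptor tyrosine kinase gene Axl were the others. KO peaks without a WT peak were at 9 of the same 22 genes and WT-specific peaks at 3, beside 7.73% and 3.32% of all genes.

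Among immediate early and AP-1 genes, which growth factors and stress switch on within minutes, 6 of 23 had a member. Their median length was 5.02 kb, where 2.58% of protein-coding genes had one. The peak just upstream of the start of Fosb, whose window is shown above, was 410 bp wide in KO and 239 bp in WT. Egr1, a zinc finger factor, had one beside its gene of 514 bp in KO and 229 bp in WT. Myc had one of 609 bp in KO and 240 bp in WT, 391 bp outside the gene. Zfp36, which promotes decay of cytokine mRNAs, had a peak of 233 bp in KO and 246 bp in WT 233 bp outside the gene and a KO peak of 1285 bp, nearer to Med29, in which 2 members of 219 and 275 bp lay. Members within Fosl2 and Klf6 were 203 and 213 bp wide in KO and 190 and 204 bp in WT. The KO interval was wider by 171, 285 and 369 bp at Fosb, Egr1 and Myc, and by 13 and 9 bp in Fosl2 and Klf6. KO peaks without a WT peak were at 9 of the same 23 genes and WT-specific peaks at 2, beside 7.73% and 3.32% of all genes.

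Of 18 markers of ovarian surface epithelium, 5 had a narrow shared peak. The median length of the 18, 25.3 kb, was in the class where 5.7% of protein-coding genes had one. Most of those with a peak were longer: Cdh2 (220370 bp) was in the class with 23.4%. Muc16 (179377 bp), Gata4 (72799 bp) and Pax8 (55049 bp) were in that with 12.9%, and Krt8 (7632 bp) in that with 2.58%. The 5.7% is thus a low comparison for them. Krt8, a keratin of simple epithelia, had one 798 bp outside the gene, upstream, 865 bp wide in KO and 470 bp in WT. Muc16, which encodes the tumour antigen CA125, had one over the upstream end of its span of 493 bp in KO and 478 bp in WT. Gata4, a transcription factor of the gonads, had one inside the gene of 523 bp in KO and 204 bp in WT, and Cdh2, N-cadherin, one of 316 bp in KO and 270 bp in WT. The Pax8 peak, shared with Gm13415, was 204 bp wide in KO and 493 bp in WT. Of the markers of other cells, 0 of 14 leukocyte, 1 of 14 neuronal and glial (Syn1, a synaptic vesicle protein) and 1 of 12 fibroblast and endothelial genes (Pecam1) had a member. The median lengths of these lists were in the class with 5.7% too. With 12 to 14 genes per list, counts of 0 and 1 show no lack of peaks at markers of other cells. KO peaks without a WT peak were at 7 of the 18 ovarian surface markers and WT-specific peaks at 1, beside 7.73% and 3.32% of all genes. A peak list does not measure expression.

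Of 42 known p53 targets, 4 had a narrow shared peak, 9.52%, against 6.67% of protein-coding genes, while 32 had a WT-specific peak. Their median length was 17.3 kb, in the class with 5.7%. Of those with a peak, Pvt1 (222230 bp) and Sesn1 (97863 bp) were longer, and Eda2r and Pidd1 were shorter than 50 kb. The member in Eda2r, a death receptor, was 247 bp wide in KO and 198 bp in WT. At Pidd1, which activates caspase 2, it was 191 bp in KO and 197 bp in WT. Sesn1, a stress-induced inhibitor of mTORC1, had one 752 bp upstream of its start, 243 bp wide in KO and 198 bp in WT, which lay nearer to Cep57l1. In the noncoding RNA gene Pvt1 it was 413 bp in KO and 206 bp in WT. At all of these the WT peak was 197 to 206 bp wide, below the lower quartile of all members, 214 bp. WT width is part of the rule, so this describes 4 members and is not a result about p53 targets.

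In the remaining lists the counts were between 0 and 3, apart from small noncoding RNA genes. Ribosomal protein genes had a member in 3 of 85 cases (Rpl19, Rpl35 and Rps18), replication-dependent histone genes in 3 of 70 (H2ac14, H2bc14 and H3c10, all through 1 peak), and housekeeping genes of transcription and translation in 0 of 20. The shares of the first 2 lists, 3.53% and 4.29%, stand beside 2.58% of protein-coding genes under 10 kb, the class of their median lengths, and 4.59% of all genes. The housekeeping list, with a median length of 5.68 kb, falls in that class of genes under 10 kb too. For the histone, ribosomal protein and housekeeping lists, KO peaks without a WT peak were at 7 of 70, 9 of 85 and 6 of 20 genes. Such peaks were at 7.73% of all genes. Among small noncoding RNA genes 46 of 2839 had a member, 1.62%, beside 4.59% of all genes. Their median length was 107 bp, far below that of most genes here, so the lower share shows no lack of peaks. Some of the 46 share a peak, as n-TRcct2 and n-TRccg2 do. Rn7sk, the 7SK RNA that holds the elongation factor P-TEFb, lay inside a KO peak of 858 bp, and the WT peak of 216 bp overlapped its end. Of 16 abundant noncoding RNAs, Rn7sk and Malat1 had one, 12.5% beside 4.59% of all genes, a share that rests on 2 genes. Of 22 interferon response genes, with a median length of 14.2 kb, in the class with 5.7%, 2 had one: Ifih1, the double-stranded RNA sensor MDA5, 2725 bp outside the gene, at 206 bp in KO and 192 bp in WT, and Usp18, which removes ISG15, at 474 bp in KO and 395 bp in WT.

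**Figure D4:**
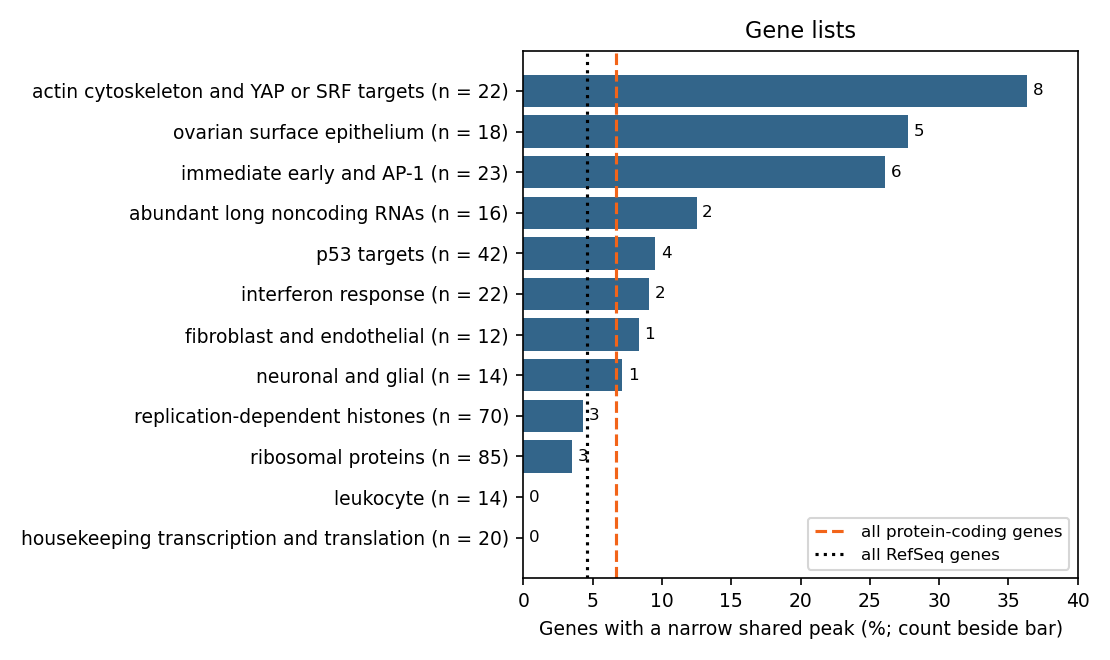
Share of genes (x axis, %) with a narrow shared peak in the gene span and 5 kb on each side, for 12 gene lists (y axis, with list size), with the count beside each bar. The dashed line is the share of protein-coding genes (6.67%) and the dotted line that of all RefSeq genes (4.59%). The lists of actin cytoskeleton (8 of 22), ovarian surface epithelium (5 of 18) and immediate early genes (6 of 23) stand farthest to the right, and list sizes and gene lengths differ. All lists were chosen with earlier results of these data known.

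The genes with the most members were long ones. Aopep, an aminopeptidase, Frmd4b, Phldb2, a protein of the cell cortex, and Tcra, the T cell receptor alpha locus, had 6 each, in spans of 361, 331, 207 and 1796 kb. In Phldb2 the KO partners were 320 to 481 bp and the members 193 to 427 bp wide. Arhgap6, Cubn, an endocytic receptor, Dnm3, a dynamin, Hspg2, Sgms1, a sphingomyelin synthase, and the noncoding RNA gene Gm35853 had 5 each, as did Sox5, Tns1 and Zmiz1os1, which follow in the alphabet. Gm35853, at 47.3 kb, was the shortest of these 13, and 4 of its members lay in 6681 bp of chromosome 15 at 101365994 to 101372674, where it overlaps Krt80, a keratin gene. KO peaks without a WT peak were also frequent in Aopep, 11, and in Tcra, 8.

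Most members had no other member within 10 kb, a count that leaves out peaks of other sets. Of the 2963, 603 lay within 10 kb of another, 20.4% (18.9 to 21.8), in 273 runs, 9 of which had 4 peaks. WT-specific peaks did so in 15.1% (13.6 to 16.7) and KO peaks without a WT peak, which are more numerous, in 33.4% (32.2 to 34.7). The runs of 4 named here were chosen after their values were seen. A run at Tnnt2, cardiac troponin T, and Pkp1 had KO widths of 451 to 967 bp and WT widths of 192 to 360 bp. Its peaks of 192 and 360 bp in WT were nearest to Pkp1. Another was at Actn1, an actinin that crosslinks actin, with 494 to 1164 bp in KO and 189 to 424 bp in WT. The run at Frmd4b had 326 to 1608 bp in KO and 286 to 472 bp in WT. A run of 3 lay in Tnni1, slow skeletal troponin I, likewise chosen, with 390 to 544 bp in KO and 236 to 355 bp in WT.

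Of 1005 miRNA hairpins with a RefSeq sequence, 3 were overlapped by a member, those of Mir212, Mir6715 and Mir6416, chosen for naming after their values were seen. Mir212 lies with Mir132 in a locus known from neurons as a target of CREB, and its 2 mature arms are shown with the seed, bases 2 to 8, in capitals.
mmu-miR-212-5p: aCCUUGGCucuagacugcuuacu
mmu-miR-212-3p: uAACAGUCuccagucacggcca
The peak over Mir212, on chromosome 11 at 75173247 to 75173556, was 392 bp wide in KO and 310 bp in WT. Those over Mir6715 and Mir6416 were 411 and 298 bp wide in KO and 415 and 239 bp in WT.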

How the data were processed

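The 4 samples analysed here, of 21, were CUT&RUN libraries made with a p53 antibody, 2 from KO and 2 from WT cells. The peak lists deposited by the authors hold a chromosome, a start and an end on mm10 and nothing else. Tools named in the submitters' processing notes were fastp, Bowtie2, MACS2 and deepTools. Settings, pooling of replicates, the rule for WT-specific peaks and read depth were not given in the sources used here, so the precision of a peak's presence is unknown.

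From the lists, widths, overlaps (1 bp or more), pairs (the KO peak with the longest overlap), midpoint distances to RefSeq genes (GRCm38.p6, 49980 genes) and to starts in 32851 promoter windows, and motif matches were computed with Python 3.11.15, numpy 2.4.6, pandas 2.3.3 and scipy 1.17.1. Chromosome 18 has no windows here. Starts are printed 1-based. Shares carry 95% exact (Clopper-Pearson) intervals and medians 95% intervals from order statistics, all treating peaks as independent. The overlap routine was tested on simulated data, and bedtools 2.31.1 gave the same 2963 members. The members, the 13 gene lists (all symbols matched) and the motifs were chosen with earlier results of these data known. Named genes were list members with a peak, the 10 genes with the most peaks, the genes nearest to the extremes of width and width ratio, and those with the most promoter bases covered. No test was run. The histone and IgG libraries were not analysed here.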

Additional observations from a re-analysis of the deposited data

How the results depend on the processing

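No paired analysis was possible because each genotype has 1 list, and for the same reason no replicate could be left out. Of 76 values recomputed under alternatives, 57 stayed within the interval, or for counts within 1.5 times, of the reported value, and 19 moved. Only the median width difference could change sign, since the other values are shares and counts, and it stayed above 0. No member lies on chromosomes Y or M, so the values recomputed without them, counted among the 57, could not move. With 50% of both peaks overlapped, the median width difference was 28 bp, the KO partner was wider in 71.4%, and the shares within 1 kb of a gene end, inside genes and within 10 kb of another member were 19.4%, 59.8% and 14.4%. This rule removes the pairs with the widest KO partners by its construction. Without a width limit the first 2 values were 59 bp and 74.4%. The share within 10 kb of another member was 17.6% with a limit of 400 bp, 14.2% with 300 bp, 29.0% without a limit, 4.93% at a distance of 1 kb and 55.2% at 100 kb. With protein-coding genes only, 47.0% of members were inside a gene, 19.3% over 50 kb away and 11.5% within 1 kb of a gene end, and 1460 genes had a member. Genes with a member numbered 1489 with nothing added to the span and 7259 with 50 kb, and p53 targets with a member 13 of 42 with 50 kb, against 4 with 5 kb. The CRE share was 5.31% with 1 window per gene, an alternative chosen after seeing the data, as was the restriction to windows rich in CpG. Presence, and not strength, is all that these lists give.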

Other observations

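Gene counts in the T cell receptor alpha locus rested on few peaks. Of 82 J segments, 20 had a narrow shared peak within 5 kb, 24.4%, through 3 peaks only, 1 beside Trdj1 and 2 among the Traj segments of chromosome 14. These were 582, 1428 and 388 bp wide in KO and 449, 250 and 236 bp in WT. Pseudogenes stood at the other end, with a member at 90 of 9944, 0.905%, against 4.96% of 12727 long noncoding RNA genes.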
